A study of Mus musculus with 12 samples.

Results

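The genes described are 10 components of the actin, keratin and tubulin cytoskeleton, Actb, Actg1, Tmsb4x, Tmsb10, Vim, Krt8, Krt18, Tuba1a, Tubb2a and Tubb6, which were picked by name as cytoskeleton genes typical of injured or dedifferentiating hepatocytes, with no threshold on their values. They are 10 of the 54839 features measured, and all 10 passed the filter on low counts. The libraries are bulk polyA RNA-seq of living hepatocytes sorted by flow cytometry, with 3 libraries in each of 4 groups, which are Tom- oil, Tom+ oil, Tom- CCl4 and Tom+ CCl4. All mice were male p16-Tom animals, which carry a tamoxifen-inducible Cre under the p16 promoter and a Cre-dependent tdTomato reporter, and the oil groups carry the same alleles. Tamoxifen was given at 80 mg/kg to switch the label on, and hepatocytes were taken after collagenase perfusion and low-speed spins. CCl4, a hepatotoxin, was injected at 1 mL/kg in corn oil for 4 weeks, and the oil groups received corn oil alone. Tom+ marks cells in which the p16 promoter had been active when tamoxifen was given, so that the fractions report a labelling history and are not themselves a measure of p16 at harvest. By qPCR of hepatocytes sorted after the last CCl4 dose, the paper found p16 mRNA higher in Tom+ than in Tom-. Library totals ranged from 37568584 to 75331424 counts.

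Actin filaments are built from beta-actin (Actb) and gamma-actin (Actg1), which are kept in reserve as monomers by the small thymosins beta-4 (Tmsb4x) and beta-10 (Tmsb10). Keratins 8 and 18 pair to form the intermediate filaments of the hepatocyte, whereas vimentin (Vim) forms those of mesenchymal, endothelial and blood cells. Microtubules are polymers of paired alpha-tubulin (Tuba1a) and beta-tubulin (Tubb2a, Tubb6), and several nearly identical genes encode each of them. In bulk liver preparations these genes therefore differ in how closely they belong to the hepatocyte itself.

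Near-identity matters most for the tubulins, because the deposited table holds fractional counts and how reads that fit more than 1 gene were counted is not given in the sources used here. The last 90 coding bases of Tubb2a and of its neighbour Tubb2b are shown as an example of how alike the pair is, and capitals mark the 3 bases that differ in them (GENCODE annotation on GRCm38, minus strand, coding regions chr13:34074468-34077929 and chr13:34127471-34130233).
Tubb2a: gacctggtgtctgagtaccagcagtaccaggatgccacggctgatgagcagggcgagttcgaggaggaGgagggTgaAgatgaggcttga
Tubb2b: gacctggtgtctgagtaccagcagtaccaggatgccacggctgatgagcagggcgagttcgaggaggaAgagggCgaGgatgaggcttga
Their coding sequences of 1338 bases were 96.5% identical, with a shared run of 551 bases, and the count of Tubb2a was not whole in 12 of 12 libraries. Tuba1a and Tuba1b were 98.3% identical over 1356 bases, and Actb and Actg1 were 88.7% identical over 1128 bases. Counts were not whole in 11 libraries for Actg1 and Tuba1a, in 7 for Actb and Krt8, in 5 for Tmsb10 and in 1 for Krt18. Tmsb4x, Vim and Tubb6 had whole counts in every library.

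The 2 thymosins are shown for the opposite reason, since they lie among the members with the highest differences with CCl4 and are easily told apart from each other. They were not compared with other features, and the count of Tmsb10 was not whole in 5 libraries. Their coding sequences, on the minus strand at chrX:167207501-167208036 and chr6:72957618-72958012 (GRCm38), have 135 bases each, and capitals mark the 40 bases at which they differ.
Tmsb4x: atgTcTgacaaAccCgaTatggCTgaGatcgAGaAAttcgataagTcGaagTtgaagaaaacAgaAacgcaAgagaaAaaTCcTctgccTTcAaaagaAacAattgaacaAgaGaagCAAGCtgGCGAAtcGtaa
Tmsb10: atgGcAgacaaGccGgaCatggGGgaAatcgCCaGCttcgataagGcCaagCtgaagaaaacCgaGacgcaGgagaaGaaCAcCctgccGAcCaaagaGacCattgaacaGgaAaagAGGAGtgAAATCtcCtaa
They were 70.4% identical, and the longest run of shared bases was 10.

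The members spanned a wide range of levels. On the TPM scale, which divides counts by gene length and allows levels of different genes to be compared, Actb was the highest with a mean of 322 over the 12 libraries. Tubb2a (217), Krt8 (196), Krt18 (181) and Actg1 (126) followed. Tmsb4x (29.1), Tuba1a (19.0) and Tubb6 (17.5) formed a middle group, and their ranges over the libraries overlapped. Vim (3.62) and Tmsb10 (3.44) were the lowest, and their ranges overlapped as well. The ratio of the highest to the lowest library was 1.39 for Actb, 1.70 for Krt8 and 1.501 for Krt18, while it was 7.34 for Vim and 12.1 for Tmsb10. Actb was also among the steadiest of all genes, since the SD of its log2 CPM within groups was 0.0655, and only 1.66% of the 17121 genes tested had a smaller one (median of all genes 0.226).

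The reporter went against the label in 2 oil libraries. Its level was 1794 CPM (TMM-normalized counts scaled to library size) in Tom- oil 1 and 135 CPM in Tom+ oil 2, while the other Tom- libraries had 120 to 263 CPM and the other Tom+ libraries 1225 to 1546 CPM. Both libraries were kept as labelled, and results that turn on them are given without them too. The hepatocyte identity of the libraries was clear from albumin (Alb), which took 73423 to 119023 CPM. Defining markers of other cells were present in all groups, far below albumin (Pecam1 5.35 to 18.4 CPM, Clec4f 3.38 to 32.9 CPM, Lrat 0.534 to 4.75 CPM), except that the bile duct marker Epcam was at 0 in 7 libraries. They were not low beside the lowest members, since Vim was at 2.98 to 21.3 CPM and Tmsb10 at 0.388 to 4.55 CPM. Sums of 14 markers reached 488 CPM for endothelial cells and 273 CPM for macrophages.

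**Figure D1:**
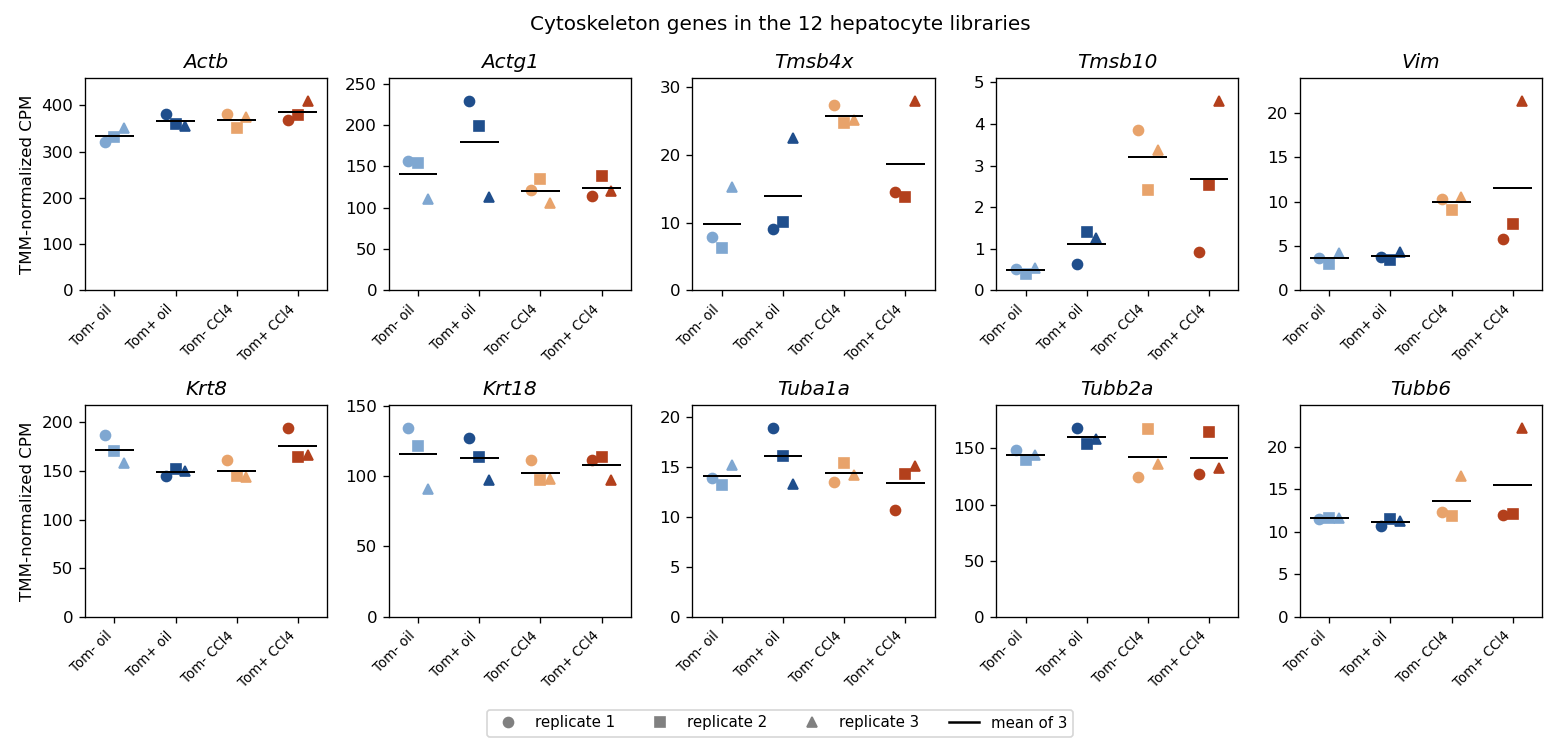
TMM-normalized CPM (y axis, starting at 0) of each of the 10 genes in the 4 groups, with a marker shape for each replicate number and a black line at the mean of 3 libraries. Vim and Tmsb10 lie higher in the CCl4 groups, Tmsb4x is higher in the libraries numbered 3 of all groups but Tom- CCl4, and Actb varies little.

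CCl4 was compared with oil within each fraction to ask how the cytoskeleton genes stood after chronic injury. In Tom- hepatocytes 2 of the 10 members rose and 0 fell, which were Tmsb10 and Vim, while 6.33% of the 17121 genes tested rose and 1.59% fell. In Tom+ hepatocytes 1 member rose, which was Vim, and 0 fell, beside 2.9% of all genes higher and 2.34% lower. A gene was counted where its edgeR adjusted p was under 0.05 and its log2 fold change was beyond 0.75. The median log2 fold change of the members was 0.09 in Tom- and 0.16 in Tom+, beside 0.00 for all genes in both fractions. All CCl4 libraries lay above all oil libraries for 4 members in Tom- and 3 in Tom+, beside 19.3% and 14.6% of all genes tested. They lay below for 0 members in both, beside 16.8% and 14.6% of all genes. Groups without overlap were thus common over all genes. The summed level of stellate cell and fibroblast markers was higher in all CCl4 libraries than in all oil libraries in both fractions. For endothelial and macrophage markers this held in Tom- only, and in Tom+ their sums overlapped between CCl4 and oil. The values are given beside the genes below. In bulk samples fewer cells of a type and less RNA per cell cannot be told apart.

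Tmsb10 (ENSMUSG00000079523, chr6:72957347-72958748, minus strand, mm10), which binds actin monomers, had the highest fold of the members in Tom-. Its level was 0.527, 0.388 and 0.552 CPM in Tom- oil and 3.87, 2.41 and 3.38 CPM in Tom- CCl4. The groups did not overlap, and every CCl4 library was several times above every oil library. The fitted log2 fold change was 2.72 (SE 0.51, 95% interval 1.62 to 3.81, edgeR adjusted p = 0.00436), and it stayed past both thresholds with each library left out in turn, with adjusted p from 0.000779 to 0.0243. Without the 2 libraries whose reporter went against the label, it was 2.78 (adjusted p = 0.0253). In Tom+ oil the level was 0.636, 1.41 and 1.27 CPM, and in Tom+ CCl4 it was 0.935, 2.53 and 4.55 CPM. These groups overlapped, because Tom+ CCl4 1 lay below 2 of the oil libraries. Here the fit gave a log2 fold change of 1.27 (SE 0.47, interval 0.26 to 2.28, edgeR adjusted p = 0.112), which did not pass. Without Tom+ CCl4 1 it was 1.68 and passed (adjusted p = 0.0146), and without Tom+ CCl4 3 it was 0.64. The counts behind these values were low, from 20 to 218 per library. In the same Tom- comparison 11 of 14 stellate cell and fibroblast markers and 14 of 14 endothelial markers rose, while in Tom+ 7 and 0 did, and the part of such cells in the Tmsb10 level was not tested.

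Tmsb4x (ENSMUSG00000049775, chrX:167207093-167209315, minus strand) holds most of the monomeric actin in many cells, with an especially high level in blood cells. In Tom- oil it was at 7.86, 6.22 and 15.3 CPM, and in Tom- CCl4 at 27.3, 24.6 and 25.2 CPM, without overlap. Its log2 fold change of 1.39 (SE 0.45, interval 0.38 to 2.41) missed the threshold (edgeR adjusted p = 0.0653). It passed with DESeq2 (1.40, adjusted p = 0.0190), with limma-voom (1.495, adjusted p = 0.0193), and without Tom- oil 3 (1.87, adjusted p = 0.0310) or Tom+ oil 3 (1.39, adjusted p = 0.0330). It also passed with the replicate block (1.54, adjusted p = 0.00222), which for CCl4 against oil took the numbers as shared over both treatments. For Tom+ against Tom- and the interaction, the block took out the spread between numbers within a treatment. Without the 2 libraries whose reporter went against the label, Tmsb4x in Tom- did not pass (1.26, edgeR adjusted p = 0.193). Nor did it pass without both CCl4 libraries numbered 3 (1.41, adjusted p = 0.113) or with same-numbered libraries summed (0.85, adjusted p = 0.212). With 1 library left out, its adjusted p ranged from 0.0310 to 0.182. In Tom+ oil the level was 9.03, 10.04 and 22.4 CPM and in Tom+ CCl4 14.4, 13.7 and 27.9 CPM. The groups overlapped, and the log2 fold change was 0.44 (SE 0.44, interval -0.55 to 1.43, adjusted p = 0.604). Without Tom+ CCl4 3 it came to 0.03, and without Tom+ oil 3 to 0.97.
The levels of Tmsb4x moved with those of 14 macrophage markers, whose sum was 21.8, 28.7 and 122 CPM in Tom- oil, 42.5, 37.6 and 181 CPM in Tom+ oil, 162, 153 and 195 CPM in Tom- CCl4 and 96.3, 90.7 and 273 CPM in Tom+ CCl4. The libraries numbered 3 were the highest of each group in this sum. Only 1 of the 14 markers, Cd14, passed the test in Tom- and 0 in Tom+ (13 and 3 with the replicate block), and the defining markers Clec4f and C1qa were above 0 in all libraries. Deviations of Tmsb4x from the group means correlated with those of the macrophage sum at 0.95. They did so too for other leukocyte (0.97), stellate cell and fibroblast (0.82), endothelial (0.76) and hepatocyte markers (0.74), and least for bile duct markers (0.10). The part of any of these cells in the Tmsb4x level was not tested.

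Vim (ENSMUSG00000026728, chr2:13573927-13582826, plus strand), the intermediate filament of mesenchymal and endothelial cells, rose with CCl4 in both fractions. It was at 3.67, 2.98 and 4.23 CPM in Tom- oil and at 10.3, 9.07 and 10.5 CPM in Tom- CCl4. It was at 3.78, 3.47 and 4.38 CPM in Tom+ oil and at 5.80, 7.44 and 21.3 CPM in Tom+ CCl4. Neither pair of groups overlapped, but Tom+ CCl4 3 stood far above the other libraries. Fitted log2 fold changes were 1.46 in Tom- (SE 0.41, interval 0.57 to 2.35, edgeR adjusted p = 0.0330) and 1.57 in Tom+ (SE 0.40, interval 0.68 to 2.45, edgeR adjusted p = 0.0337). Averaged over both fractions it was 1.51 (SE 0.29, adjusted p = 0.00408), with the Tom+ and Tom- libraries treated as independent. With same-numbered Tom+ and Tom- libraries summed, so that each pair counts once, the log2 fold change was 1.47 (edgeR adjusted p = 0.0325).
The calls within a fraction were not firm. In Tom- the call was lost without any 1 of the 6 libraries compared (adjusted p 0.0606 to 0.106), and it was lost without the 2 libraries of doubted label (1.47, adjusted p = 0.122). In Tom+ it was lost without any 1 of the oil libraries (0.0693 to 0.118), without Tom- CCl4 1 (0.0503), and without the 2 doubted libraries (adjusted p = 0.149). Without Tom+ CCl4 3 the log2 fold change in Tom+ was 0.77, and without both CCl4 libraries numbered 3 it was 0.77 (SE 0.19, adjusted p = 0.0359), and both still passed.
Of 14 stellate cell and fibroblast markers, 11 rose with CCl4 in Tom- and 7 in Tom+. Their summed level was 13.1 to 26.3 CPM in Tom- oil, 13.6 to 40.3 CPM in Tom+ oil, 99.0 to 128 CPM in Tom- CCl4 and 67.4 to 143 CPM in Tom+ CCl4. The defining markers Lrat and Col1a1 were above 0 in all 12 libraries. Other lists also stood higher beside Vim. All 14 endothelial markers rose in Tom-, and Tom+ CCl4 3, the library with the highest Vim, also had the highest sums of macrophage (273 CPM), other leukocyte (25.2 CPM) and dividing cell markers (139 CPM). Deviations of Vim from the group means correlated with those of the stellate and fibroblast sum at 0.62. For the other lists they did so at 0.63 (endothelial), 0.62 (macrophage), 0.70 (other leukocyte), 0.74 (dividing cell), 0.74 (mesothelial), 0.54 (hepatocyte) and 0.06 (bile duct). The part of any of these cells in the Vim level was not tested.

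**Figure D2:**
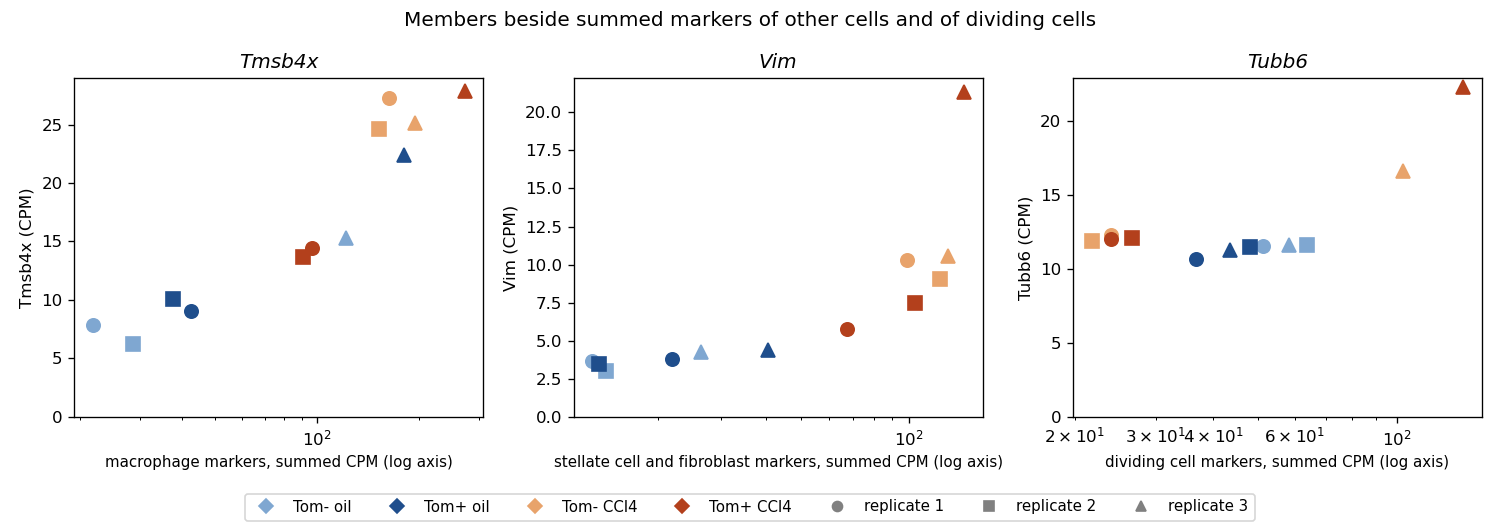
Level of Tmsb4x, Vim and Tubb6 (CPM, y axis) in each of the 12 libraries against the summed CPM of macrophage, stellate cell and fibroblast, or dividing cell markers in the same library (x axis, log scale), coloured by group and shaped by replicate number. Tmsb4x follows the macrophage sum across groups, Vim is higher in the CCl4 libraries, where the stellate sum is higher, and Tubb6 is high only in both CCl4 libraries numbered 3, where the dividing cell sum is 103 and 139 CPM. Vim is drawn beside the stellate list only, and its correlations with the other lists are given in the text.

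The cytoplasmic actins did not pass the test in either fraction. Actb (ENSMUSG00000029580, chr5:142903115-142906754, minus strand) was at 321, 331 and 352 CPM in Tom- oil and at 382, 351 and 375 CPM in Tom- CCl4. It was at 381, 361 and 355 CPM in Tom+ oil and at 369, 380 and 409 CPM in Tom+ CCl4. These 4 sets of values lay close together, and the log2 fold change was 0.14 in Tom- (interval -0.04 to 0.32, edgeR adjusted p = 0.259) and 0.08 in Tom+ (interval -0.10 to 0.26, adjusted p = 0.613).
Actg1 (ENSMUSG00000062825, chr11:120345690-120348542, minus strand) was more variable. It was at 157, 154 and 110 CPM in Tom- oil, 229, 198 and 113 CPM in Tom+ oil, 121, 134 and 105 CPM in Tom- CCl4 and 115, 138 and 120 CPM in Tom+ CCl4. The oil library numbered 3 was the lowest of its group in both fractions, and these are the oil libraries with the highest macrophage sums. With CCl4 its log2 fold change was -0.23 in Tom- (interval -0.71 to 0.26, adjusted p = 0.523) and -0.54 in Tom+ (interval -1.03 to -0.05, adjusted p = 0.164). Without Tom+ oil 3 the value in Tom+ was -0.78, and it then passed as lower (edgeR adjusted p = 0.00774). The share of Actb in the TPM of the 6 actin genes was 70.3% ± 4.88 (SD, n = 3) in Tom- oil, 67.4% ± 7.21 in Tom+ oil, 75.2% ± 2.91 in Tom- CCl4 and 75.5% ± 2.02 in Tom+ CCl4. The smooth muscle actin Acta2, a mark of myofibroblasts, had only 0 to 12 counts in each library.

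Actin genes are classical targets of serum response factor (SRF), which binds a CArG box. Among the promoters of RefSeq (GRCm38.p6, 250 bases before to 50 after the start) 8 of the 10 members had an entry, Actb and Tubb6 had none and were not searched, and of the 8 only that of Actg1 held a CArG box, at bases -90 to -81 from the start. It is shown with its flanks (chr11:120348566-120348595, minus strand), and capitals mark the box.
Actg1: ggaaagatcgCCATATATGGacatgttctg
A CArG box was found in 535 of 32851 promoters (1.63%), and the search covered both strands, on which this motif reads alike. Of 23 symbols listed for SRF target genes, 21 matched a measured feature, and 18 of those were tested. Of the 18, 6 rose with CCl4 in Tom- and 4 in Tom+, and 0 fell, beside 6.33% and 2.9% of all genes that rose. The median log2 fold change of the list was 0.65 in Tom- and 0.48 in Tom+, beside 0.00 for all genes. The stellate and fibroblast markers (11 in Tom- and 7 in Tom+) and the endothelial markers (14 in Tom- and 0 in Tom+) rose in the same comparisons, and their part in the list was not tested. The genes Filip1l (2.16), the actin crosslinker filamin A (Flna, 1.64) and tropomyosin 4 (Tpm4, 0.88) were the largest in Tom- with a mean of at least 1 CPM. In Tom+, tropomyosin 1 (Tpm1, 0.89, edgeR adjusted p = 0.000449) and the matricellular gene Ccn1 (0.87, adjusted p = 0.0175) rose, besides Myl9 and Thbs1, which lay under 1 CPM and were named after their values were seen. Actb and Actg1 belong to this list and did not pass the test.

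The keratins of the hepatocyte did not pass either. Krt8 (ENSMUSG00000049382, chr15:101996698-102004482, minus strand) was at 187, 171 and 158 CPM in Tom- oil and at 161, 145 and 144 CPM in Tom- CCl4. It was at 144, 152 and 150 CPM in Tom+ oil and at 195, 164 and 166 CPM in Tom+ CCl4. The CCl4 libraries thus overlapped with the oil libraries in Tom- and lay above them in Tom+. The log2 fold change was -0.19 in Tom- (SE 0.09, edgeR adjusted p = 0.172) and 0.24 in Tom+ (SE 0.09, adjusted p = 0.134).
Krt18 (ENSMUSG00000023043, chr15:102028180-102032027, plus strand) was at 134, 121 and 90.8 CPM in Tom- oil, 127, 113 and 96.9 CPM in Tom+ oil, 112, 97.0 and 97.6 CPM in Tom- CCl4 and 111, 114 and 97.4 CPM in Tom+ CCl4. All groups overlapped, with log2 fold changes of -0.18 in Tom- (interval -0.47 to 0.12, adjusted p = 0.403) and -0.07 in Tom+ (interval -0.36 to 0.23, adjusted p = 0.819). The TPM of Krt8 was close to that of Krt18, with a ratio of 1.11 ± 0.144 in Tom- oil, 0.983 ± 0.149 in Tom+ oil, 1.08 ± 0.0200 in Tom- CCl4 and 1.199 ± 0.121 in Tom+ CCl4 (SD, n = 3). The keratins of bile ducts were nearly absent. Krt7 and Krt19 had 0 counts in all 6 oil libraries, which allows up to 0.0781 CPM in the shallowest of them (3 counts), and no more than 5 and 14 counts in a CCl4 library. Of 10 keratins listed only 3 could be tested, and the third, Krt23, an epithelial keratin, had log2 fold changes of -2.62 in Tom- (adjusted p = 0.0453) and -3.84 in Tom+ (adjusted p = 0.0226), both called lower, and it had 52 to 302 counts per oil library and 0 to 46 counts per CCl4 library.

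The 3 tubulin members did not pass the test with CCl4. Tuba1a (ENSMUSG00000072235, chr15:98949837-98953703, minus strand) was at 13.9, 13.2 and 15.1 CPM in Tom- oil, 18.9, 16.1 and 13.2 CPM in Tom+ oil, 13.5, 15.4 and 14.2 CPM in Tom- CCl4 and 10.7, 14.3 and 15.1 CPM in Tom+ CCl4. The groups overlapped, with log2 fold changes of 0.03 in Tom- (interval -0.29 to 0.35, edgeR adjusted p = 0.914) and -0.27 in Tom+ (interval -0.59 to 0.04, adjusted p = 0.277). Tubb2a (ENSMUSG00000058672, chr13:34074274-34078007, minus strand) was at 149, 140 and 145 CPM in Tom- oil, 169, 154 and 159 CPM in Tom+ oil, 125, 167 and 136 CPM in Tom- CCl4 and 127, 165 and 133 CPM in Tom+ CCl4. The CCl4 library numbered 2 was the highest in both fractions, and the log2 fold changes were -0.02 in Tom- (interval -0.27 to 0.24, adjusted p = 0.941) and -0.18 in Tom+ (interval -0.43 to 0.07, adjusted p = 0.374).
Tubb6 (ENSMUSG00000001473, chromosome 18, plus strand) showed a different pattern. It was nearly constant in oil, at 11.6, 11.6 and 11.6 CPM in Tom- and 10.6, 11.5 and 11.3 CPM in Tom+. With CCl4 it was at 12.3, 11.9 and 16.6 CPM in Tom- and at 12.03, 12.1 and 22.3 CPM in Tom+. Thus both CCl4 libraries numbered 3 stood apart, and the others lay close to oil. The log2 fold change of 0.23 in Tom- (interval -0.22 to 0.68, adjusted p = 0.480) and of 0.47 in Tom+ (interval 0.03 to 0.92, adjusted p = 0.180) came to 0.06 and 0.12 without both libraries numbered 3. These are the libraries in which the sum of 12 dividing cell markers was highest, at 103 and 139 CPM, against 21.8 to 63.7 CPM in the other 10 libraries. Mki67, which marks dividing cells, was at 27.4 and 37.0 CPM in them and at 4.95 to 12.46 CPM elsewhere. 0 of the 12 markers passed the test between CCl4 and oil in either fraction, and the part of dividing cells in the Tubb6 level was not tested.

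Of the other tubulins, only Tuba8 passed both thresholds with CCl4. Tuba8, an alpha-tubulin found mainly in a few specialised tissues, was at 11.2, 13.3 and 23.2 CPM in Tom- oil and at 33.9, 35.2 and 30.0 CPM in Tom- CCl4. In Tom+ it was at 25.1, 20.5 and 23.4 CPM in oil and at 46.3, 55.4 and 44.6 CPM in CCl4. Tuba8 rose by a log2 fold change of 1.05 in Tom- (SE 0.22, edgeR adjusted p = 0.00774) and of 1.08 in Tom+ (SE 0.21, adjusted p = 0.00893). Its share of all alpha-tubulin TPM was 5.95% ± 2.39 in Tom- oil, 7.52% ± 1.07 in Tom+ oil, 14.3% ± 1.35 in Tom- CCl4 and 18.2% ± 2.097 in Tom+ CCl4 (SD, n = 3). The main alpha-tubulin, Tuba1c, was lower with CCl4 by -0.45 in Tom- (adjusted p = 0.0301) and -0.57 in Tom+ (adjusted p = 0.0130), which is under the fold threshold. Tuba4a, named after its values were seen, was lower by -0.47 in Tom- (adjusted p = 0.0123) and -0.40 in Tom+ (adjusted p = 0.0355), also under it. Tuba1a held 6.19% to 7.79% of the alpha-tubulin TPM in the 4 group means. Tuba1b had a log2 fold change of -0.16 in Tom- (adjusted p = 0.539) and -0.02 in Tom+ (adjusted p = 0.967).
Of the beta-tubulins, Tubb2a made up 50.2% ± 2.31 in Tom- oil, 53.9% ± 1.26 in Tom+ oil, 54.6% ± 4.65 in Tom- CCl4 and 51.2% ± 4.97 in Tom+ CCl4, whereas Tubb6 held 3.43% to 5.10% in the group means. Tubb4b was lower with CCl4 in Tom- (-0.44, adjusted p = 0.0398), under the fold threshold, and was at -0.08 in Tom+ (adjusted p = 0.781). Tubb2b (0.04 in Tom-, -0.14 in Tom+) and Tubb5 (-0.23 in Tom-, 0.00 in Tom+) did not pass. 0 of the 5 beta-tubulins tested and 0 of 19 microtubule partner genes tested passed both thresholds in either fraction.

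**Figure D3:**
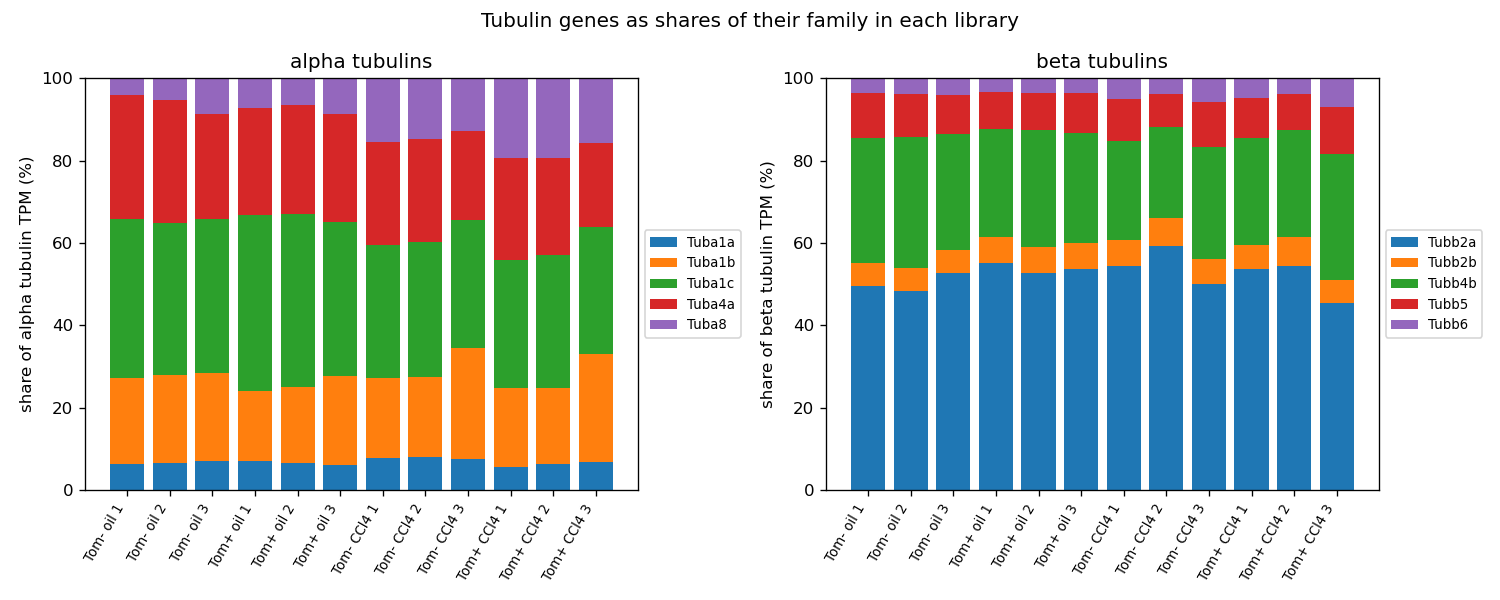
Share of each gene in the summed TPM of the alpha-tubulins (left) and beta-tubulins (right), in percent, as stacked bars for each of the 12 libraries, with genes above 1% drawn. Tuba8 takes 3.98% to 8.68% of the alpha-tubulin TPM in oil libraries and 12.8% to 19.4% in CCl4 libraries, and Tubb2a takes 45.5% to 59.3% of the beta-tubulin TPM.

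Among the partners of actin filaments, several genes were higher with CCl4. Of 34 actin crosslinking and myosin genes, 33 were tested, and 7 rose in Tom- and 3 in Tom+ while 0 fell, beside 6.33% and 2.9% of all genes that rose. The median log2 fold change of the list was 0.05 in Tom- and 0.14 in Tom+, close to 0.00 for all genes. Transgelin-2 (Tagln2), an actin-bundling protein, rose most among those with at least 1 CPM. It was at 5.09, 3.47 and 4.78 CPM in Tom- oil and at 17.3, 18.2 and 20.7 CPM in Tom- CCl4, a log2 fold change of 2.08 (SE 0.20, edgeR adjusted p = 4.87e-05). In Tom+ it was at 6.38, 4.70 and 6.07 CPM in oil and at 15.6, 20.3 and 26.1 CPM in CCl4, a log2 fold change of 1.85 (SE 0.20, adjusted p = 9.99e-05). The groups were fully apart in both fractions. Flna (1.64, adjusted p = 0.0115) and the calponin Cnn2 (1.57, adjusted p = 0.00252) followed in Tom-. Of 30 actin binding and assembly genes, 29 were tested. Besides Tmsb10, the severing protein gelsolin (Gsn, 1.61, adjusted p = 0.0491, under 1 CPM and named after its value was seen) rose in Tom-, profilin 2 (Pfn2, -1.45, adjusted p = 0.00825) fell in Tom-, and the Arp2/3 subunit Arpc1b (0.96, adjusted p = 0.00939) rose in Tom+. Of 13 other intermediate filament and linker genes tested, nestin (Nes) rose besides Vim in Tom- (1.57, adjusted p = 0.0100), and only Vim rose in Tom+. With the replicate block the actin binding list had 4 genes higher in Tom- and 2 in Tom+, and the intermediate filament list had 2 higher in Tom+.
Markers of other cells rose in the same comparisons. Of 14 stellate cell and fibroblast markers, 11 rose with CCl4 in Tom- and 7 in Tom+. All 14 endothelial markers rose in Tom- and 0 in Tom+, where Tagln2 also rose. The endothelial sum was 179 to 266 CPM in Tom- oil, 200.1 to 328 CPM in Tom+ oil, 467 to 488 CPM in Tom- CCl4 and 236 to 325 CPM in Tom+ CCl4. The part of any of these cells in these actin-related genes was not tested.

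Tom+ was then compared with Tom- within each treatment, which asks whether labelled and unlabelled hepatocytes differ in these genes. The paper found Tom+ cells mostly near the central veins, and stated that bulk RNA-seq could therefore not separate their features from lobular position. The part of lobular position in any difference between the fractions, or in its change between treatments, was not tested here. With CCl4, 0 of the 10 members were higher and 0 lower by edgeR, DESeq2 or limma-voom, while 0.222% of all genes were higher and 1.74% lower, and only Krt8 had an unadjusted p under 0.05. Of the 33 actin crosslinking genes 2 were lower in Tom+, fascin (Fscn1, -1.01, edgeR adjusted p = 0.00946) and Cnn2 (-0.97, adjusted p = 0.0465), together with 7 of 14 endothelial markers. In oil, 0 members were called by edgeR, DESeq2 or limma-voom, beside 0% of all genes higher and 0% lower by edgeR, and Tmsb10 and Krt8 had an unadjusted p under 0.05. All Tom+ oil libraries lay above all Tom- oil libraries for 3 members (Actb, Tmsb10, Tubb2a), beside 6.11% of all genes. They lay below for 2 (Krt8, Tubb6), beside 5.57%, although 2 oil libraries are of doubted label. With CCl4 they lay above for 1 member (Krt8) and below for 0, beside 14.1% and 14.6% of all genes. The intervals bound what could have been missed. In CCl4 the log2 fold change of Actb was 0.06 (interval -0.11 to 0.24) and that of Tubb2a -0.01 (interval -0.26 to 0.24). The intervals were wider for Vim (0.20, interval -0.65 to 1.06), Tmsb10 (-0.28, interval -1.25 to 0.69) and Tmsb4x (-0.46, interval -1.45 to 0.52). Vim turned to -0.59 without Tom+ CCl4 3 (adjusted p = 0.0926), so that its direction rested on that library. Tmsb10 in oil was higher in Tom+ in 3 of 3 same-numbered pairs, of which pairs 1 and 2 each hold a library of doubted label, but its log2 fold change of 1.17 (interval 0.07 to 2.27) did not pass (edgeR adjusted p = 0.691).

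Krt8 had the smallest p of the members in the test of whether Tom+ against Tom- differed between treatments, although other members, such as Tmsb4x and Tmsb10, also had fitted values of opposite sign in oil and CCl4. For Krt8, Tom+ was above Tom- in 3 of 3 same-numbered pairs with CCl4 (log2 fold change 0.22, SE 0.09, edgeR adjusted p = 0.173) and below it in 3 of 3 pairs in oil (-0.21, SE 0.09, adjusted p = 0.695). In oil, however, the reporter was high in both libraries of pair 1 (1794 and 1546 CPM) and low in both of pair 2 (157 and 135 CPM), so that by the reporter only pair 3 contrasts the fractions. Blocking on replicate number gave the value in CCl4 an adjusted p of 0.0436, still under the fold threshold. The difference between the 2 treatments (the interaction) was 0.43 (SE 0.13, interval 0.15 to 0.71, edgeR adjusted p = 0.108), and with the replicate block it was 0.43 (adjusted p = 0.0140), under the fold threshold as well. Without the 2 oil libraries of doubted label it was 0.387 (adjusted p = 0.266). For all 10 members the interaction was called in 0, while 0.216% of all genes were higher and 0.958% lower. With the replicate block Tmsb4x passed as lower (-1.02, adjusted p = 0.0435), against -0.95 (adjusted p = 0.455) without it. Fscn1 was the 1 actin crosslinking gene with a called interaction (-1.28, adjusted p = 0.0341), and with the block 1 such gene was higher and 3 were lower.

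**Figure D4:**
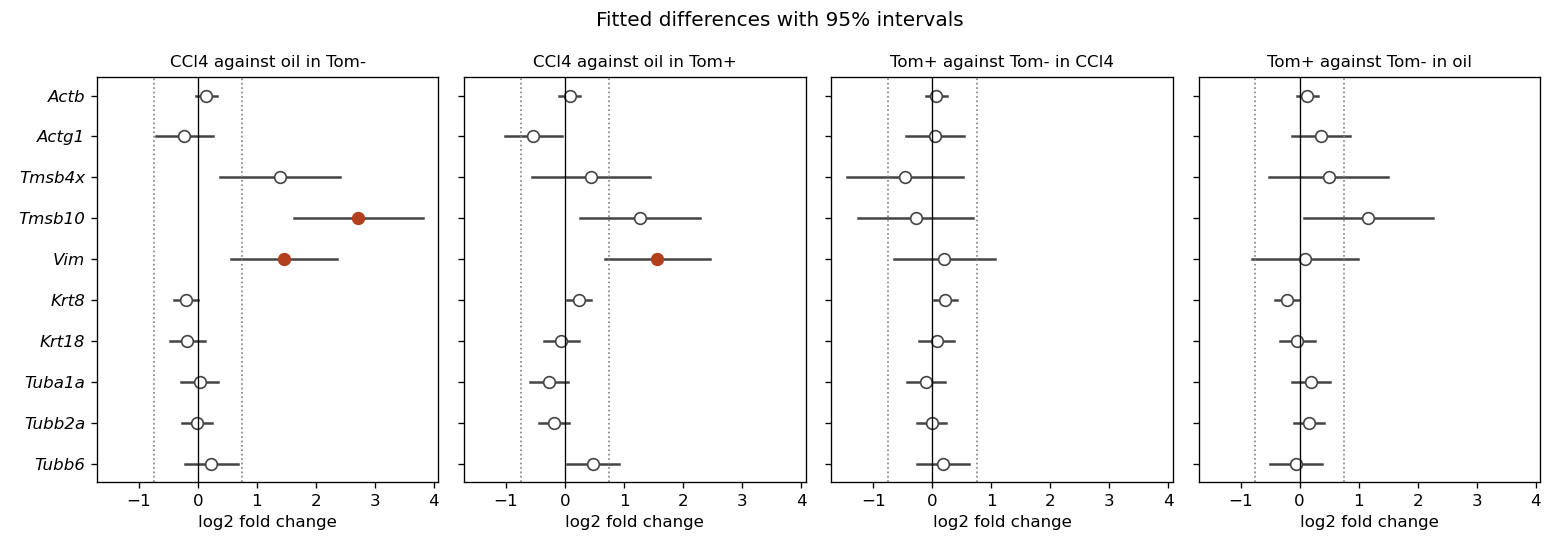
Log2 fold change (x axis) of the 10 genes in 4 comparisons, as points with 95% intervals from the edgeR fit, filled where the gene passed both thresholds, with dotted lines at log2 fold changes of -0.75 and 0.75. Vim in both CCl4 comparisons and Tmsb10 in Tom- are filled, and the intervals of Actb and Tubb2a lie inside the dotted lines in all 4 comparisons.

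The gene most like each member was sought among 13046 genes with a mean of at least 1 CPM, by the Pearson correlation of log2 CPM deviations from the group means over the 12 libraries. It is a description, since the libraries share depth, preparation and replicate number. It was Gnai2 for Tubb6 (0.99), Gm12715 for Actg1 (0.98), Gmps for Krt18 (0.97), Pkm for Vim (0.96), St6gal1 for Tmsb4x (0.96), Mup3 for Krt8 (0.95), Picalm for Tubb2a (0.94), Gm9816 for Tmsb10 (0.92), Oxct1 for Tuba1a (0.90) and Pitpnc1 for Actb (0.87). None of these was another member.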

How the data were processed

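The deposited table was made by the authors from strand-specific polyA libraries, whose reads were checked with fastp (v0.23.2) and aligned to mm10 with HISAT2 (v2.1.0). The counting program and annotation release are not given in the sources used here. It holds expected counts per feature, not normalized, as deposited by the authors, with the feature length, and 99.8% of 54839 features were matched to a symbol. In each library 30.4% to 32.9% of the non-zero values were not whole, so that values were rounded before tests, although whole counts had been assumed. Groups came from the labels. The labels do not name the mice, so that p-values measure the spread between these libraries.

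The rounded counts of all 12 libraries entered 1 edgeR quasi-likelihood fit (v4.0.16, R v4.3.3) with robust dispersion, TMM factors and 17121 genes kept by filterByExpr, and p-values were adjusted by Benjamini-Hochberg over all genes. CPM are TMM-normalized, and TPM were computed from rounded counts and deposited lengths. DESeq2 (v1.42.0), limma-voom (v3.58.1), other normalizations and filters, a replicate block and the removal of libraries were alternatives, and scripts were tested on simulated data. Plots were made in matplotlib (v3.10.9) under Python (v3.11.15). No molecular identifiers are described, and limits from 0 counts cover counting error only. The members, lists and tests were chosen with earlier results of these data known. Named besides the members are called genes of each list with a mean of at least 1 CPM, up to the 3 largest in a direction, 8 paralogs, defining markers and the most alike gene, though not every gene of the marker lists is printed.

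Deviations from the group means of same-numbered Tom+ and Tom- libraries correlated at 0.205, 0.231 and 0.318 in oil and 0.247, 0.187 and 0.401 in CCl4 over 17121 genes. The numbers in the labels were therefore taken to pair the fractions within a treatment, but only in the replicate block. The main fit holds group means alone, so that its p-values for Tom+ against Tom- and for the interaction leave this pairing out. Between oil and CCl4 the same numbers correlated at 0.00898 to 0.226 and were not taken as pairs in the main fit either. The replicate block for CCl4 against oil nevertheless took the numbers as shared over both treatments, so that its calls rest on that matching.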

Additional observations from a re-analysis of the deposited data

Results flagged for a closer look

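For 2 members the difference between Tom+ and Tom- stood apart between treatments by the direction of the pairs or with the replicate block, although neither passed the main test of the interaction. The interaction of Krt8 had a log2 value of 0.43 (edgeR adjusted p = 0.108), and with the replicate block the adjusted p was 0.0140. Every same-numbered pair moved one way with CCl4 and the opposite way in oil. The adjusted p was 0.0401 with DESeq2, 0.107 with limma-voom, 0.266 without the 2 doubted oil libraries (0.387) and 0.163 without both CCl4 libraries numbered 3, and the value stayed under the fold threshold in all of them. By the reporter, oil pairs 1 and 2 do not contrast the fractions.

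The interaction of Tmsb4x had a log2 value of -0.95 (edgeR adjusted p = 0.455), and with the replicate block it was -1.02 with an adjusted p of 0.0435. Tom+ was above Tom- in 3 of 3 same-numbered pairs in oil and in 1 of 3 with CCl4. The adjusted p was 0.452 with DESeq2, 0.327 with limma-voom and 0.633 without the 2 doubted oil libraries. With the block taken over both treatments instead, 0 members were called.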

How the results depend on the processing

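Over all alternatives 1092 values of the members were recomputed, of which 1030 kept their direction and their side of the threshold, 16 were no longer called, 11 were newly called and 35 changed sign, and none of those that changed sign had been called. The main fit had called only Tmsb10 in Tom- and Vim in both fractions, so that most of the 1030 were uncalled values that stayed uncalled. Tmsb10 in Tom- kept its call throughout (adjusted p at most 0.0306), and all 16 lost calls were those of Vim. In Tom- hepatocytes the number of members called with CCl4 went from 2 to 1 with no filter on low counts and without the 2 doubted oil libraries, to 3 with DESeq2, limma-voom, only the 2 groups compared and the replicate block, and ranged from 1 to 3 with 1 library left out. In Tom+ it went from 1 to 0 with no filter, with limma-voom, with only the 2 groups compared and without the 2 doubted oil libraries, to 2 with same-numbered libraries summed and when averaged over both fractions, and ranged from 0 to 2 with 1 library left out. The cause was not tested.

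With the replicate block the interaction called 1 member, Tmsb4x, in place of 0, and the calls over all genes went from 336 to 682 for Tom+ against Tom- in CCl4, from 0 to 40 in oil and from 201 to 938 for the interaction. For CCl4 against oil, where the block took the numbers as shared over both treatments, they went from 1356 to 1694 in Tom- and from 897 to 1119 in Tom+. Apart from the Tmsb4x calls in the interaction and in Tom-, the block changed no call of a member. The block over both treatments for Tom+ against Tom- and the interaction was chosen after seeing the data. So were the sums of same-numbered libraries and the fit without both CCl4 libraries numbered 3.

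Signs changed as follows in log2 fold change. Without both CCl4 libraries numbered 3, Tom+ against Tom- in CCl4 gave -0.0172 for Actg1, -0.00523 for Tubb6 and -0.552 for Vim, and CCl4 against oil gave 0.000897 for Krt18 in Tom+ and 0.0170 for Tubb2a in Tom-. Without the 2 doubted oil libraries, Krt18 gave 0.0671 in oil and Tubb2a 0.00860 for CCl4 in Tom-. Tubb2a for CCl4 in Tom- gave 0.0106 with upper quartile normalization and 0.00525 with at least 10 counts in every library. Summed same-numbered libraries gave 0.0532 for Krt8 and -0.176 for Tuba1a, and averaging over both fractions gave 0.0214 and -0.122, against their values in Tom-. Vim for Tom+ against Tom- in CCl4 gave -0.124 with limma-voom and -0.0180 with the replicate block.

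With 1 library left out, Tom+ against Tom- in CCl4 ranged from -0.0412 to 0.133 for Actg1, from -0.912 to 0.136 for Tmsb10, from -0.203 to 0.0321 for Tuba1a, from -0.133 to 0.118 for Tubb2a, from -0.175 to 0.352 for Tubb6 and from -0.593 to 0.528 for Vim. In oil it ranged from -0.183 to 0.0854 for Krt18, from -0.0395 to 0.969 for Tmsb4x and from -0.0293 to 0.224 for Vim. CCl4 against oil ranged from -0.162 to 0.0314 for Krt18 in Tom+, from -0.0240 to 0.0859 for Tuba1a in Tom- and from -0.147 to 0.0709 for Tubb2a in Tom-. Tmsb10, with 20 to 218 counts per library, is the member whose depth limits it most.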

Other observations

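The ratio of Tmsb4x to Tmsb10 on the TPM scale was 18.2 ± 6.57 in Tom- oil, 12.1 ± 4.99 in Tom+ oil, 7.68 ± 1.62 in Tom- CCl4 and 8.37 ± 5.20 in Tom+ CCl4 (SD, n = 3), with 5.04 to 25.7 over single libraries. The ratio of Actb to Actg1 was 2.44 ± 0.629 in Tom- oil, 2.19 ± 0.809 in Tom+ oil, 3.09 ± 0.472 in Tom- CCl4 and 3.11 ± 0.337 in Tom+ CCl4. In oil it was highest in the libraries numbered 3, at 3.17 in Tom- and 3.12 in Tom+. These ratios were not tested.

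Among 12 bile duct markers, Prom1, a membrane protein of progenitor and duct cells, had 0 to 2 counts in the oil libraries, 132, 331 and 198 counts in Tom- CCl4 and 518, 628 and 349 counts in Tom+ CCl4. The summed level of the list was 75.1 to 97.8 CPM in oil and 100.2 to 122 CPM with CCl4, while Krt7, Krt19 and Epcam stayed at or near 0. The sum of 8 mesothelial markers was at most 3.53 CPM, and that of 14 other leukocyte markers was 3.89 to 25.2 CPM.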
